A study of Rattus norvegicus with 15 samples.

Results

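The widest dietary contrast of this rat study set mammary tumours of females raised on zinc-supplemented chow against tumours of females raised on zinc-deficient chow, which gave 10 of the 15 tumours measured. The 5 supplemented tumours came from rats fed 180 mg zinc per kg chow in early life, and the 5 deficient tumours from rats fed 3 mg zinc per kg chow. The other 5 tumours, called control here, carry a label that names a negative control, which was read as the adequate diet of 35 mg zinc per kg chow. All animals were Sprague-Dawley females, and the RNA came from tumours of tubular or papillary type. Each diet was given to 16 dams from gestation day 10, passed to the daughters at weaning on day 21 and ended at day 51. On day 51 every rat of every group received 1 intragastric dose of 50 mg/kg 7,12-dimethylbenz(a)anthracene (DMBA), a polycyclic hydrocarbon that induces mammary carcinomas in rats, and was fed the adequate diet from then until the tumours were taken at day 180. The contrast is therefore one of past diets: no tumour was under a zinc-poor or zinc-rich diet when its RNA was taken. No label ties a tumour to its animal or litter, so each p-value measures only the spread between these samples.

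Zinc is a structural part of zinc-finger transcription factors and a catalytic part of many enzymes. Cells take it up through the Slc39a (ZIP) transporters, export or store it through the Slc30a (ZnT) transporters, and buffer it with metallothioneins, whose genes are switched on by the zinc-sensing factor Mtf1 through short metal response elements. DMBA-induced tumours of the rat mammary gland are mostly hormone-dependent carcinomas built from luminal and basal epithelial cells, with stroma, vessels and blood among them.

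RNA was measured on 15 single-colour Agilent arrays. A level below is the log2 signal of a probe minus the 75th percentile of its array, so that 0 is the 75th percentile. A difference is the supplemented minus the deficient mean on that log2 scale. Of 41012 probes, 21015 were tested, each well above background on 5 or more of the 15 arrays, and 10714 of these could be assigned to 8382 genes. Genes are called bright where the mean level over the 15 arrays was at least 2, middle between 0 and 2, and dim below 0, and a gene with several tested probes is given by the brightest. The 75th percentile of the raw signal lay between 50.66 and 177.2, the number of spots well above background between 13854 and 24009 of 43379, and no spot was saturated. The 3 dimmest arrays were deficient 1 (50.66), deficient 4 (52.37) and control 2 (55.91), whereas the supplemented arrays lay between 103.3 and 162.7. The arrays came from 4 slides scanned on 2 days, and every slide held tumours of all 3 diets.

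The tumours carried the epithelial transcripts that their label calls for, with close levels in both diets for the keratins and Epcam given here. The level of the luminal keratin Krt18 was 8.24 ± 0.20 (SD, n = 5) after the deficient diet and 8.17 ± 0.27 after the supplemented diet, and the epithelial adhesion molecule Epcam 4.83 ± 0.20 and 5.01 ± 0.39. Krt14, a basal keratin, stood at 3.98 ± 0.59 and 3.77 ± 0.65. Of 14 measured luminal markers 8 were higher and 6 lower in supplemented tumours, with a median difference of 0.07 and members from -0.57 to 0.76. Of 13 basal and myoepithelial markers 4 were higher and 9 lower, with a median of -0.04 and members from -1.39 to 0.22. These medians stand beside 0.03 over all tested genes, of which 4555 were higher and 3827 lower. In whole tumours, fewer cells of a type and less RNA per cell cannot be told apart.

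No probe passed the test in the comparison of all tested probes. With limma and Benjamini-Hochberg adjustment over 21015 probes, 0 had an adjusted p under 0.05 (0%), and the lowest adjusted p was 0.615. Unadjusted p-values under 0.05 belonged to 1481 probes (7.05%), 696 of them higher (3.31%) and 785 lower (3.74%) in supplemented tumours, where 1051 are due at that threshold. The 10 tumours resembled each other, with a correlation across tested probes of 0.91 to 0.98 between any pair. The 95% confidence interval of a difference reached 0.51 to either side for the median probe, a factor of 1.43. Every gene named below is thus a description of levels in these tumours, not a called change.

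Bright genes showed the narrowest spread and an excess of higher over lower values in supplemented tumours. Their median SD within a diet was 0.28, against 0.32 in middle and 0.46 in dim genes, and the median half-width of the 95% interval was 0.41, 0.44 and 0.59. Of 2327 bright genes 1423 were higher and 904 lower, with a median of 0.06. All 5 supplemented tumours lay above all 5 deficient tumours for 38 of the 2324 bright genes measured in all 10 (1.64%), and below them for 4 (0.172%). For the 2486 middle genes these counts were 38 (1.53%) and 5 (0.201%). Among 3563 dim genes the counts were nearer to each other, 22 (0.617%) and 18 (0.505%). Over all 8373 genes, 98 lay apart above (1.17%) and 27 below (0.322%). By unadjusted p under 0.05, 85 bright genes were higher (3.65%) and 39 lower (1.68%), 105 middle genes higher (4.22%) and 45 lower (1.81%), and 99 dim genes higher (2.77%) and 137 lower (3.84%), or 289 (3.45%) and 221 (2.64%) over all genes. When normexp background correction with an offset of 50 was used, the counts of genes lying apart were 29 and 43 and the bright median was -0.38. When normexp was followed by quantile normalization, they were 61 and 33, with a bright median of 0.03. Without the 3 dimmest arrays the bright median was 0.02.

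**Figure D1:**
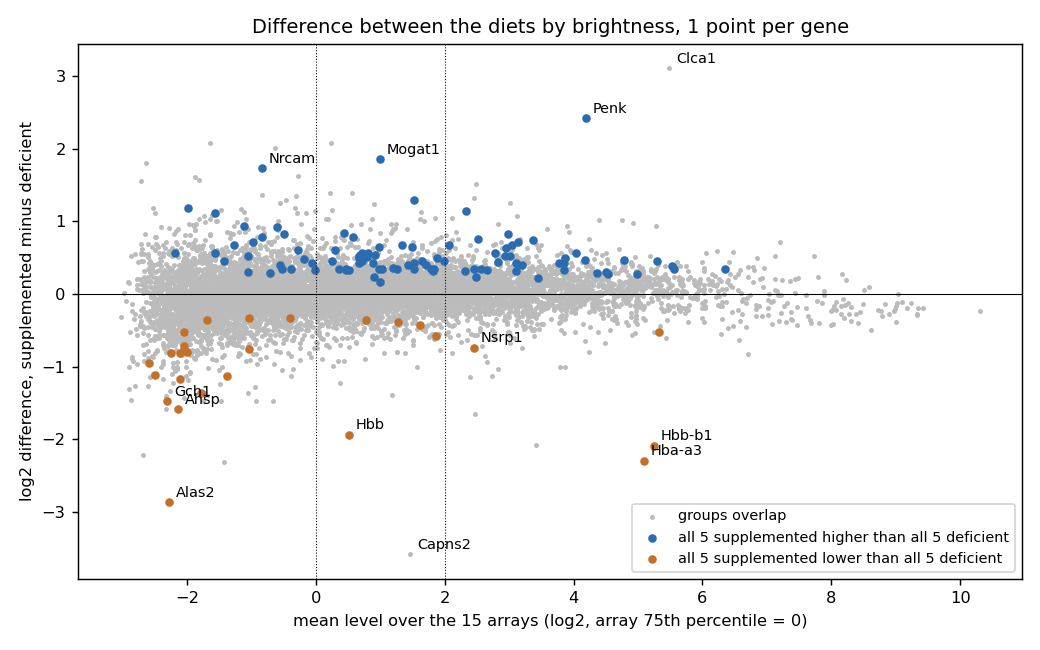
Difference between the diets (supplemented minus deficient, log2) against the mean level over the 15 arrays, 1 point per gene, with dotted lines at 0 and 2 between dim, middle and bright genes. Genes whose groups do not overlap are coloured, and 98 of them lie above 0 and 27 below, with Penk at 2.42 and the globins Hbb-b1 and Hba-a3 at -2.09 and -2.30 standing out among bright genes.

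Proenkephalin (Penk), the precursor of the opioid enkephalin peptides, was the bright gene with the lowest p-value. Deficient tumours 1 to 5 had levels of 1.14, 3.49, 3.10, 3.50 and 2.55, and supplemented tumours 1 to 5 had 4.11, 5.03, 5.81, 4.53 and 6.41. Every supplemented tumour lay above every deficient one, and the control tumours, from 3.85 to 5.23, also lay above every deficient tumour but within or below the supplemented range. The difference was 2.42 (95% interval 1.39 to 3.45; 2.75 ± 0.98 against 5.18 ± 0.94, SD, n = 5 each), with an unadjusted p of 0.000139 and a limma adjusted p of 0.615. It was 2.97, 1.93, 1.23 and 3.86 within slides 1 to 4 and 2.37 with the slide as a block. Carboxypeptidase E (Cpe), which trims peptide precursors such as proenkephalin, was a middle gene with the same arrangement, from 0.06 to 1.65 in deficient and from 1.70 to 2.40 in supplemented tumours (difference 1.30, 0.49 to 2.10, limma adjusted p 0.661). The other 3 measured members of the neuropeptide and opioid list were not arranged in this way: the opioid receptor gene Oprd1 differed by -0.41, Pomc by 0.01 and Npy by -1.43, all with overlapping groups.

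The other bright genes named as higher were of varied function. Adenosine deaminase (Ada), a zinc enzyme of purine breakdown, had levels of 0.92, 2.25, 1.01, 2.31 and 2.18 in deficient tumours and 2.45, 3.10, 2.72, 3.37 and 2.73 in supplemented tumours. The groups did not overlap, both Ada probes were higher, and the difference was 1.14 (0.45 to 1.82, limma adjusted p 0.661). Cd200, a surface glycoprotein that restrains myeloid cells through its receptor, had 4.08, 3.81, 3.74, 3.01 and 4.55 in deficient against 4.41, 5.06, 4.92, 5.03 and 4.85 in supplemented tumours, a difference of 1.02 (0.45 to 1.58). Deficient tumour 5 reached into the supplemented range of Cd200. Zmat3, a zinc-finger RNA-binding protein induced by p53, ranged from 2.63 to 3.30 in deficient and from 3.40 to 4.14 in supplemented tumours (difference 0.75). The brain-type creatine kinase Ckb, which buffers ATP, ranged from 2.02 to 2.91 and from 2.97 to 3.81 (difference 0.72). Rab10, a small GTPase of vesicle transport, and Sec14l1, a lipid-binding protein, also lay apart, with differences of 0.68 and 0.67. The lysosomal protease legumain (Lgmn) differed by 0.76 with overlapping groups. The limma adjusted p of all these genes was 0.661. After normexp with the offset Ckb gave 0.01, Sec14l1 0.13 and Rab10 0.20, beside -0.38 for all bright genes.

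Most of the 38 bright genes that lay apart above differed by little. Besides Penk and Ada, which exceeded 1, the gap junction gene Gja1 stood at 0.82, the hyaluronidase Cemip2 at 0.76, and the smallest was Hif1a at 0.22. They included the chaperone genes Hspa8 (0.35), Dnaja1 (0.56), Chordc1 (0.63), Cct8 (0.39) and St13 (0.27), and genes of protein removal and secretion such as Vcp (0.49), Psmb1 (0.43), Psmb4 (0.34), Copa (0.40), Sar1b (0.40) and Sec11a (0.32). These genes were picked out after their values were seen.

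Bright genes that were lower in supplemented tumours were led by haemoglobin. The adult beta-globin gene Hbb-b1 had levels of 8.20, 5.88, 5.71, 6.24 and 5.97 in deficient tumours 1 to 5 and 4.43, 4.24, 4.80, 3.53 and 4.57 in supplemented tumours 1 to 5. The alpha-globin gene Hba-a3 had 9.05, 5.21, 5.85, 5.84 and 5.67 against 4.26, 3.24, 4.45, 3.66 and 4.48. In both genes every deficient tumour lay above every supplemented one, and deficient tumour 1 lay far above the other 4. The 5 control tumours overlapped both groups, from 3.50 to 5.92 for Hbb-b1 and from 3.13 to 6.49 for Hba-a3. Deficient tumours 1, 4 and 5 lay above every control for Hbb-b1, and deficient tumour 1 for Hba-a3. The difference was -2.09 for Hbb-b1 (-3.10 to -1.07, limma adjusted p 0.636) and -2.30 for Hba-a3 (-3.71 to -0.90, limma adjusted p 0.661). Within slides 1 to 4 it was -3.77, -1.36, -2.44 and -1.40 for Hbb-b1, and -4.78, -1.37, -2.18 and -1.19 for Hba-a3. Without deficient tumour 1, which was also the dimmest array, the differences were -1.64 and -1.62.

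Globin genes are transcribed in red cell precursors, and their messages persist in circulating reticulocytes. Erythroid promoters are known to carry CACCC boxes, bound by Klf1, and GATA motifs, bound by Gata1. The 250 bases upstream of the RefSeq start of 3 of the erythroid genes are shown because these genes were lower together in supplemented tumours, and those of Mt1 because its promoter is the textbook target of the zinc sensor. Capitals mark CACCC in Hbb-b1 and Hba-a3, GATAA in Alas2 and the metal response element core TGCNCNC in Mt1, searched on both strands, each without regard to the other motifs. All are 5′ to 3′ on the strand of the gene, from build GRCr8: chr1:167643521-167643770 (minus strand) for Hbb-b1, chr10:15816944-15817193 (minus strand) for Hba-a3, chrX:22895200-22895449 (plus strand) for Alas2 and chr19:10832976-10833225 (minus strand) for Mt1.
Hbb-b1: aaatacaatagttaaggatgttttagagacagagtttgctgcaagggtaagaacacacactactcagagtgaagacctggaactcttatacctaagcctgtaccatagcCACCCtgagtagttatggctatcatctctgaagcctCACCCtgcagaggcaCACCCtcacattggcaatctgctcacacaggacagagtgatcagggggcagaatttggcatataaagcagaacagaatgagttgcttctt
Hba-a3: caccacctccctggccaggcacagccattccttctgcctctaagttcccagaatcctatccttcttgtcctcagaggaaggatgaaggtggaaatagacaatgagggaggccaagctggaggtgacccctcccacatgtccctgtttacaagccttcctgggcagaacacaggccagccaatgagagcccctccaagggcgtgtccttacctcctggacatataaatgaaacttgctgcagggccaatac
Alas2: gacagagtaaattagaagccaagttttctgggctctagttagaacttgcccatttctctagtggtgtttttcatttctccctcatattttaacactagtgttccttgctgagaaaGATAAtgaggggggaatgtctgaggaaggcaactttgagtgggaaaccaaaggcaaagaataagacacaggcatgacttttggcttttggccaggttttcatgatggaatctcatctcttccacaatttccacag
Mt1: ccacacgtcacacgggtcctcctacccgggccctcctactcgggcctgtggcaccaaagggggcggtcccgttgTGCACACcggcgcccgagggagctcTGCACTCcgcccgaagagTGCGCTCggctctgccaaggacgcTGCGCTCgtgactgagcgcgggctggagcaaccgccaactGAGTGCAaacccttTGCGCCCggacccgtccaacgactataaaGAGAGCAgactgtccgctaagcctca
The Hbb-b1 window held CACCC 3 times and GATAA 0 times, Hba-a3 held neither, Alas2 held GATAA once and CACCC 0 times, and Mt1 held TGCNCNC 7 times. Of 33469 rat promoter windows of that length, 49.2% held CACCC at least once and 6.6% at least 3 times, 23.5% held GATAA, and 43.4% held TGCNCNC, with 4.2% holding it 3 or more times. A match describes letters only and shows no binding.

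Nsrp1, a splicing regulator of nuclear speckles, and Rpl23a, a large-subunit ribosomal protein, were the other 2 bright genes that lay apart below. Nsrp1 had 2.86, 2.77, 3.17, 2.76 and 2.63 in deficient against 2.28, 2.07, 2.27, 2.29 and 1.58 in supplemented tumours, a difference of -0.74 (-1.11 to -0.37, limma adjusted p 0.636). Its slides gave -0.58, -0.60, -0.67 and -1.05. Rpl23a, picked out after its values were seen, differed by -0.52 (5.63 ± 0.43 against 5.11 ± 0.19, limma adjusted p 0.696). The nuclear speckle protein pinin (Pnn) differed by -0.66, the calpain inhibitor calpastatin (Cast) by -0.56 with all 3 of its probes lower, the nucleolar repressor Mybbp1a by -0.55, the adaptor Stap2 by -0.53 and the transporter Abca2 by -0.52. In these 5 genes the groups overlapped.

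**Figure D2:**
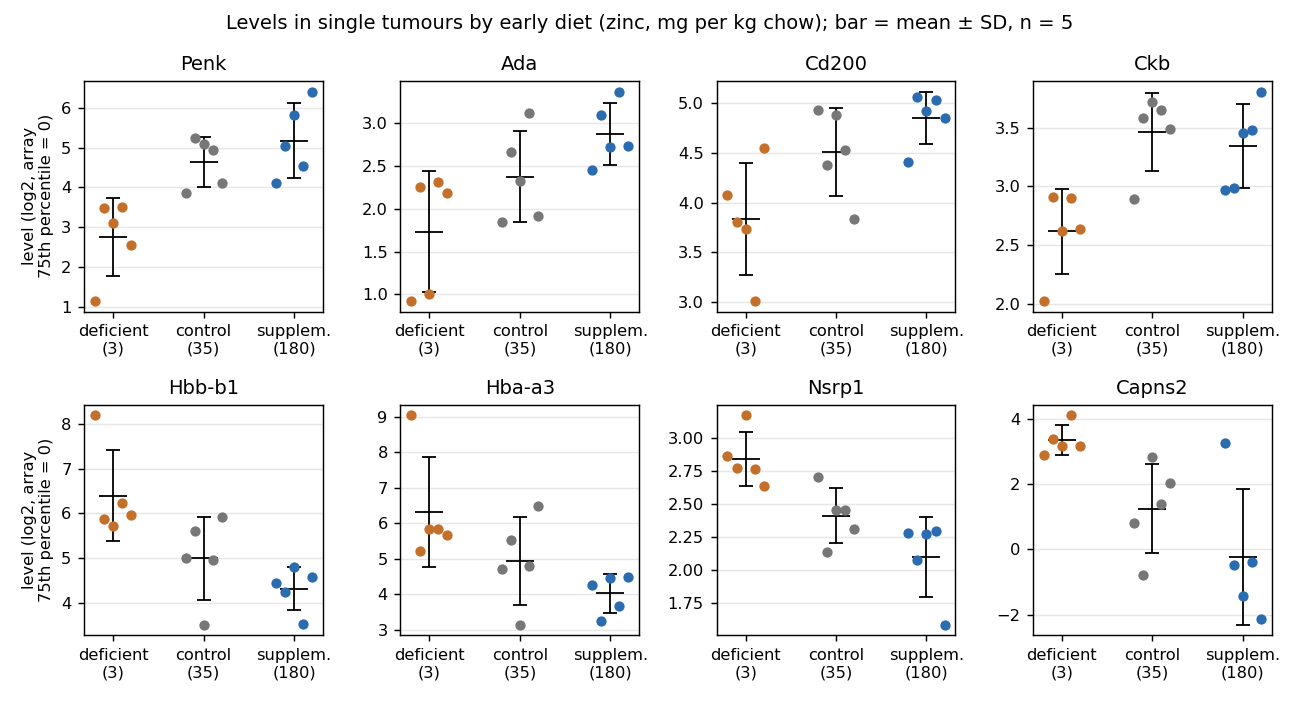
Levels of 8 genes in single tumours by early diet (log2, array 75th percentile = 0), with points for tumours and bars for mean ± SD (n = 5). Penk, Ada and Ckb lie higher in every supplemented than in every deficient tumour, Hbb-b1, Hba-a3 and Nsrp1 lower, and Cd200 and Capns2 each have 1 tumour reaching into the other group.

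The widest mean differences among bright genes came with wide spread inside a diet, and these genes were picked out after their values were seen. Clca1, a secreted protein of mucus-producing epithelia, ranged from 1.56 to 6.42 in deficient, from 1.26 to 8.17 in control and from 6.39 to 8.94 in supplemented tumours. Its difference of 3.11 (0.39 to 5.82) had an unadjusted p of 0.0274 and a limma adjusted p of 0.701, and the diet ranges touched only between deficient tumour 3 and supplemented tumour 1. The growth factor gene Igf2 ranged from -0.46 to 5.82 and from -0.04 to 6.45 (difference 1.52, limma adjusted p 0.799). Csap1 differed by -2.08 and Fam111a by -1.66, also with overlap, and for Fam111a supplemented tumours 3 and 5 alone were low, at -2.08 and -1.33.

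Among middle genes, the lowest p-values belonged to Mogat1 and Capns2. Mogat1, which acylates monoacylglycerol in triglyceride synthesis, had -0.49, 0.18, -0.21, 0.30 and 0.10 in deficient against 1.05, 2.05, 1.96, 2.38 and 1.76 in supplemented tumours. The control tumours spread from -0.15 to 2.63 across both. Its difference was 1.86 (1.04 to 2.69, limma adjusted p 0.615), and the slides gave 1.54, 1.82, 2.33 and 1.66. Of 20 triglyceride and lipid synthesis genes 10 were higher and 10 lower (median -0.02), and Mogat1 alone had an unadjusted p under 0.05.

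Capns2, a small regulatory subunit of calpain proteases, had the lowest difference of all tested genes, -3.59 (-5.31 to -1.86, limma adjusted p 0.636). Deficient tumours had 2.91, 3.39, 3.16, 4.12 and 3.19, and supplemented tumours 3.27, -0.48, -1.42, -0.39 and -2.14. Supplemented tumour 1 thus stood in the deficient range, and slide 1 gave 0.36 where slides 2 to 4 gave -4.34, -4.03 and -5.32. The controls ran from -0.78 to 2.83, between the 2 diets for most tumours. Among the alternatives run, Capns2 passed the limma test only without supplemented tumour 1, with -4.46 and an adjusted p of 0.0263, and it was then the 1 probe called.

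Dlat, the acetyl-transferring subunit of the pyruvate dehydrogenase complex, showed a small but even separation. It had 0.46, 0.54, 0.71, 0.85 and 0.81 in deficient against 1.13, 1.38, 1.23, 1.52 and 1.38 in supplemented tumours, with both of its probes higher. Its slides gave 0.67, 0.77, 0.74 and 0.57 around a difference of 0.65 (0.33 to 0.98, limma adjusted p 0.636). Twsg1, which binds bone morphogenetic proteins outside the cell, differed by 0.84 and Pigs, a subunit of the transamidase that attaches GPI anchors, by 0.65, both without overlap. Of the middle genes that were lower, the beta-globin probe Hbb had 3.12, 0.86, 1.30, 0.82 and 1.38 against 0.17, -1.62, -0.02, -0.75 and 0.01 (difference -1.94, limma adjusted p 0.661). The globin genes are near copies of each other, so their probes may share signal. The inflammatory caspase Casp4 differed by -0.63, the sodium pump regulator Fxyd6 by -0.92 and the zinc-finger gene Zbtb8a by -0.59, with overlapping groups. The other 4 middle genes that lay apart below, named for their small number, were Ap3d1 (-0.58), Kif7 (-0.43), Ttc14 (-0.38) and Snrpb (-0.36).

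**Figure D3:**
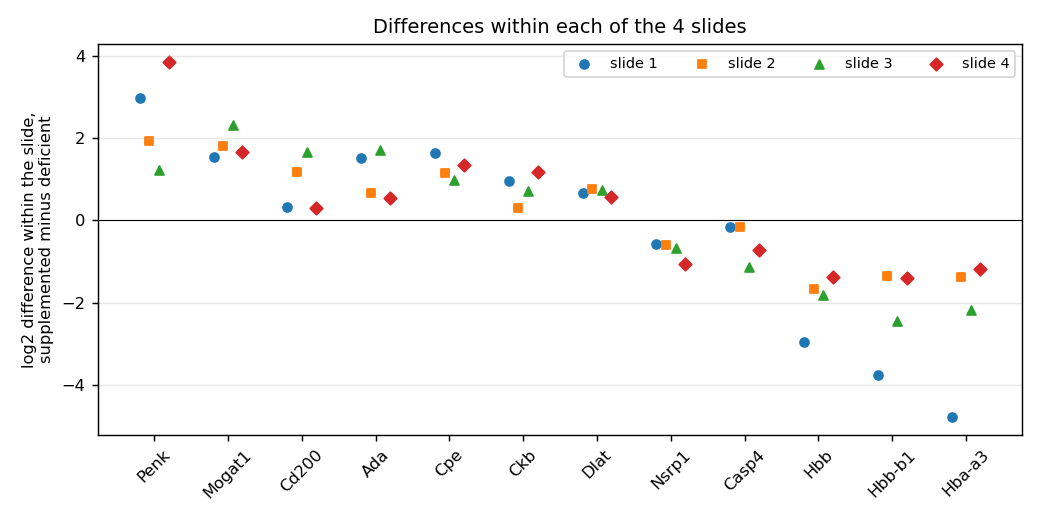
Difference (supplemented minus deficient, log2) within each of the 4 slides for 12 bright and middle genes, 1 symbol per slide. Every one of the 12 genes has the same sign on all 4 slides, with Dlat between 0.57 and 0.77 and Hba-a3 between -4.78 and -1.19. The 12 genes were chosen from these same data. For all of them but Cd200 and Casp4 the groups do not overlap, which by itself gives the same sign on every slide.

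None of the 3 dim genes of lowest p in each direction was well above background in every tumour. Their differences shrank with normexp and in the deposited values. Alas2, which starts haem synthesis in red cell precursors, was well above background in 4 deficient, 3 control and 0 supplemented tumours. Its levels were 1.19, -1.48, -0.08, -2.00 and -1.22 against -3.84, -4.25, -2.69, -4.03 and -3.16 (measured means -0.72 and -3.59, limma adjusted p 0.615). On this scale the deficient mean of Alas2, raised by deficient tumour 1, was at least 2.81-fold higher. That bound was taken against the lowest signal well above background on each supplemented array. It does not carry over to other processing, and with normexp the difference was -0.35. Ahsp, the chaperone of free alpha-globin, was well above background in 4 deficient and 1 supplemented tumour, with -1.19 ± 0.71 against -2.79 ± 0.47 and a difference of -1.59. Gch1, the first enzyme of tetrahydrobiopterin synthesis, was so in 3 and 1, with -1.53 ± 0.43 against -3.02 ± 0.66. All 3 groups of values lay apart, yet in the authors' deposited log2 values the differences were -0.82 for Alas2, -0.38 for Ahsp and -0.24 for Gch1. Higher in supplemented tumours were the adhesion molecule Nrcam (1.73), the large heat shock protein Hsph1 (0.92) and Hsd17b1, which makes oestradiol from oestrone (0.94). These 3 also lay apart, with 0.60, 0.47 and 0.51 in the deposited values.

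The erythrocyte list had the lowest median of all lists. Of its 9 measured genes 7 were lower and 2 higher in supplemented tumours, with a median difference of -1.59. An unadjusted p under 0.05 in limma belonged to 6 (the background is 2.64% of all genes on that side), and 5 lay apart below (background 0.322%). The 6 were Hbb-b1, Hba-a3, Hbb, Alas2, Ahsp and the embryonic-type globin Hbe2 (-0.49). Of the 9 genes 5 were dim, and over all dim genes these backgrounds were 3.84% and 0.505%. The list was chosen with earlier results of these data known, and its globin probes may share signal. The transferrin receptor gene Tfrc (0.30) and Bpgm (0.20), an enzyme of red cell glycolysis, were higher with overlap, and Car1 differed by -0.49. The mean level of the 9 genes was 2.21, 0.49, 0.93, 0.85 and 0.78 in deficient tumours, -0.07, 0.55, -0.57, 0.33 and 1.07 in control tumours and -0.17, -0.41, 0.08, -0.49 and -0.01 in supplemented tumours. Deficient tumours thus lay above supplemented ones without overlap on this mean, and the supplemented minus deficient difference of the mean was -2.38, -0.66, -1.38 and -0.79 within slides 1 to 4. The control means overlapped both ranges, and deficient tumour 1 lay above every control. The median was -1.40 without deficient tumour 1 and -1.38 without the 3 dimmest arrays, -0.38 in the deposited values and -0.08 after normexp. As reported, at -1.59, it was the value of the dim gene Ahsp. In the deposited values Hbb-b1 gave -1.93, Hba-a3 -2.08 and Hbb -1.20. After normexp these 3 globin genes gave -2.44, -2.60 and -1.12, beside -0.38 for all bright genes, while the dim genes Alas2 and Ahsp gave -0.35 and -0.06. Of 6 endothelial genes 3 were higher, by at most 0.04, and 3 lower, down to -0.59, with a median of -0.13, Kdr at 2.37 ± 0.53 and 2.10 ± 0.64 and none with an unadjusted p under 0.05. That median was -0.36 over probes well above background on all 10 arrays. The part of blood content in the globin difference was not tested.

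**Figure D4:**
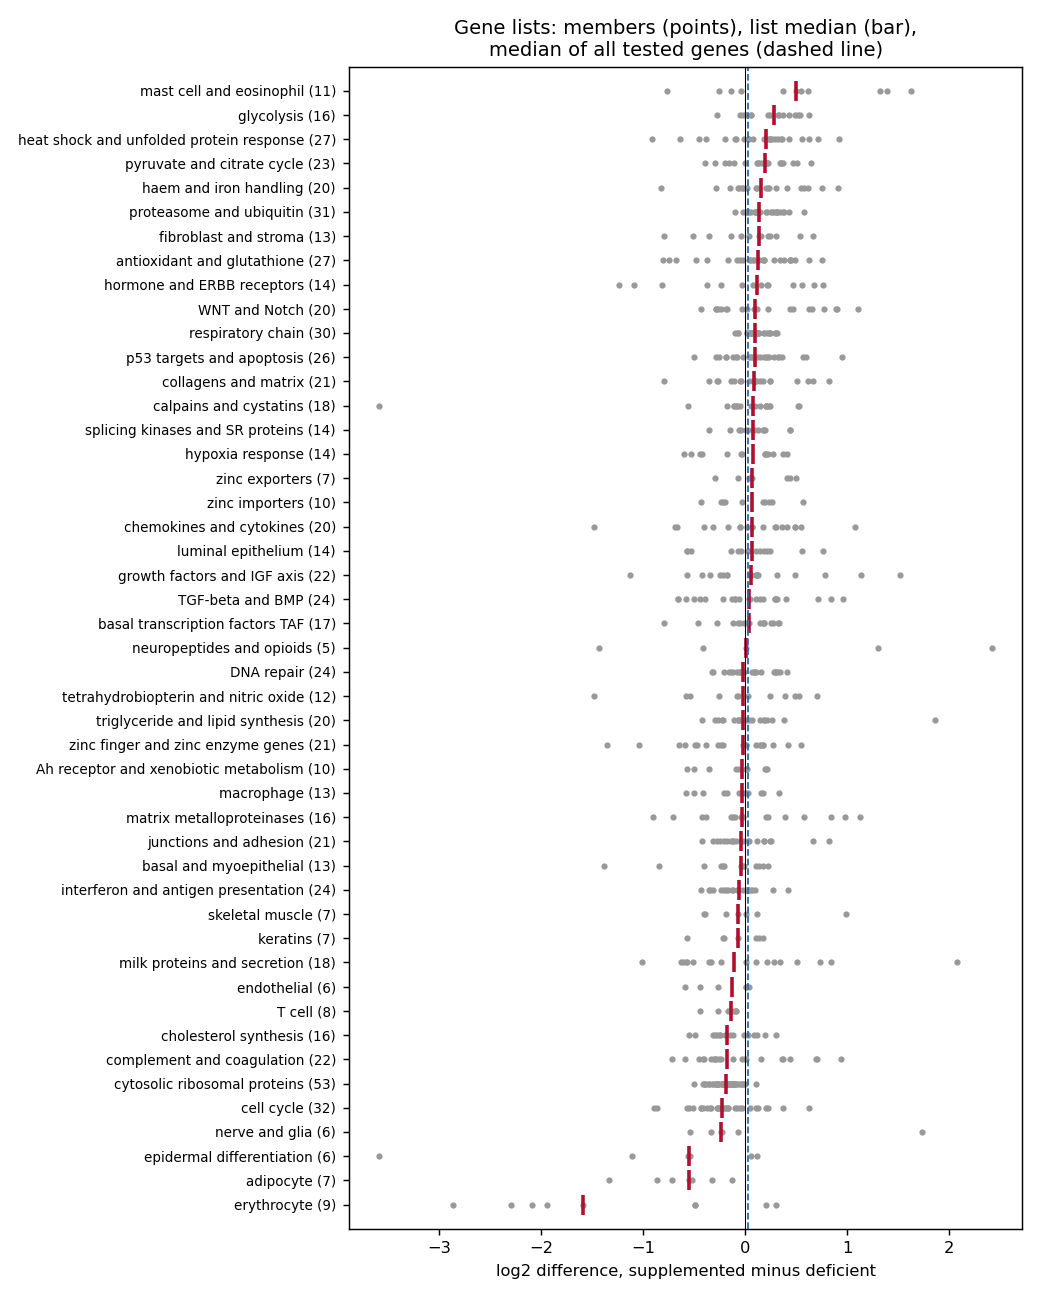
Differences (supplemented minus deficient, log2) of the members of each gene list with at least 5 measured genes. The list median is a bar, the number measured is in brackets and a dashed line marks the median of all tested genes, 0.03. The metallothionein and zinc sensor list (4 measured) and the neutrophil list (2 measured) are not drawn. The erythrocyte list has the lowest median, -1.59, and most other list medians lie close to the dashed line.

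Genes of zinc handling, the pathway closest to the diets, showed no common direction. Mt1, a metallothionein, had 4.80, 4.23, 6.27, 5.20 and 4.12 in deficient and 4.30, 4.21, 3.29, 5.53 and 7.32 in supplemented tumours, a difference of 0.01 (-1.54 to 1.55, limma adjusted p 0.999). Mt2A, its paralogue, differed by -0.17 (-1.55 to 1.21). Among the 10 tumours both genes were lowest in supplemented tumour 3 and highest in supplemented tumour 5. Those intervals leave room for large changes in either direction, and the sign of each small difference turned under other settings. The zinc sensor Mtf1 differed by -1.01 with overlap. Slc39a6 (ZIP6), an importer whose gene is regulated by oestrogen in breast cells, was bright and higher in supplemented tumours, with 3.49 ± 0.42 against 4.06 ± 0.22 (difference 0.57, 0.10 to 1.04, limma adjusted p 0.696). Slc30a1 (ZnT1), the exporter of the cell membrane and a known target of Mtf1, had -0.55 ± 0.27 against -0.11 ± 0.13 (difference 0.44, 0.10 to 0.77, limma adjusted p 0.675). The groups overlapped in both. The other measured transporters had unadjusted p-values over 0.05: of 10 importers 5 were higher and 5 lower, and of 7 exporters 5 were higher and 2 lower, each with a median of 0.07. Among 21 zinc-finger and zinc enzyme genes 10 were higher and 11 lower, and Klf6, a zinc-finger factor, had the only unadjusted p under 0.05 (-0.65, 4.59 ± 0.68 against 3.94 ± 0.09).

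Genes of protein folding, protein removal and energy metabolism were mostly slightly higher in supplemented tumours. Of 31 proteasome and ubiquitin genes 29 were higher and 2 lower (median 0.14), where 1423 of 2327 bright genes were higher with a median of 0.06. Psmb4 (0.34) and Psmb1 (0.43), subunits of the core particle, lay apart, and the ATPase subunit Psmc4 (0.58) overlapped. Of 30 respiratory chain genes 27 were higher (median 0.10) and none had an unadjusted p under 0.05. Their largest difference was 0.31, in Uqcrfs1. The mean level of the proteasome list followed the brightness of the arrays, with its 3 lowest values, 3.91, 3.88 and 3.88, on the 3 dimmest arrays. Without those arrays the medians were 0.04 for the proteasome and 0.02 for the respiratory chain. With array brightness as a covariate they were 0.07 and 0.06.

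Sugar metabolism and chaperone genes were likewise mostly higher. Of 16 glycolysis genes 13 were higher (median 0.28, and 0.37 without those arrays), led by phosphoglycerate kinase Pgk1 (0.63, 3.08 ± 0.50 against 3.70 ± 0.50), with the muscle-type phosphofructokinase Pfkm (0.32) lying apart. Leaving out supplemented tumour 4 gave a median of 0.14. Of 23 pyruvate and citrate cycle genes 17 were higher (median 0.19, and 0.09 without the 3 dimmest arrays), and Dlat and Pdhb (0.35), both parts of pyruvate dehydrogenase, lay apart. Among 27 genes of the heat shock and unfolded protein responses, 19 were higher (median 0.20, and 0.12 without supplemented tumour 4), 5 with an unadjusted p under 0.05 on the higher side (3.45% over all genes) and 4 on the lower (2.64%). Hsph1, Chordc1, Dnaja1 and Hspa8, all cytosolic chaperones or cofactors of them, lay apart above (1.17% over all genes). Herpud1, of the endoplasmic reticulum, was higher by 0.71 with overlap, while the stress factors Atf6 (-0.64) and Atf4 (-0.38), the chaperone Hsp90ab1 (-0.45) and the small heat shock protein Hspb8 (-0.91) were lower. After normexp with the offset, the medians of the proteasome, respiratory chain, glycolysis, citrate cycle and heat shock lists were -0.36, -0.30, -0.17, -0.18 and -0.23. Those of all bright, middle and dim genes were -0.38, -0.12 and 0.17. The lists mix these classes: 16 of the 27 heat shock genes and 14 of the 23 citrate cycle genes were bright.

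Cytosolic ribosomal protein genes went the other way. Of 53 measured, all bright, 52 were lower in supplemented tumours and only Rpl4 (0.11) was higher. Their median was -0.19 and their lowest difference -0.50. An unadjusted p under 0.05 in limma belonged to 4 on the lower side (1.68% over all bright genes), among them Rpl38 (-0.41), Rps12 (-0.38) and Rps14 (-0.39). None of the 53 lay apart, where 0.172% of all bright genes lay apart below. Rpl23a, described above, is not among the 53. The mean level was 7.58 ± 0.17 in deficient and 7.39 ± 0.18 in supplemented tumours, and slides 1 to 4 gave -0.01, -0.10, -0.16 and -0.28. The median was -0.09 after quantile normalization, -0.07 with array weights, -0.12 in the deposited values and -0.06 after normexp with quantile normalization. It was -0.74 after normexp with the offset, where that of all bright genes was -0.38.

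**Figure D5:**
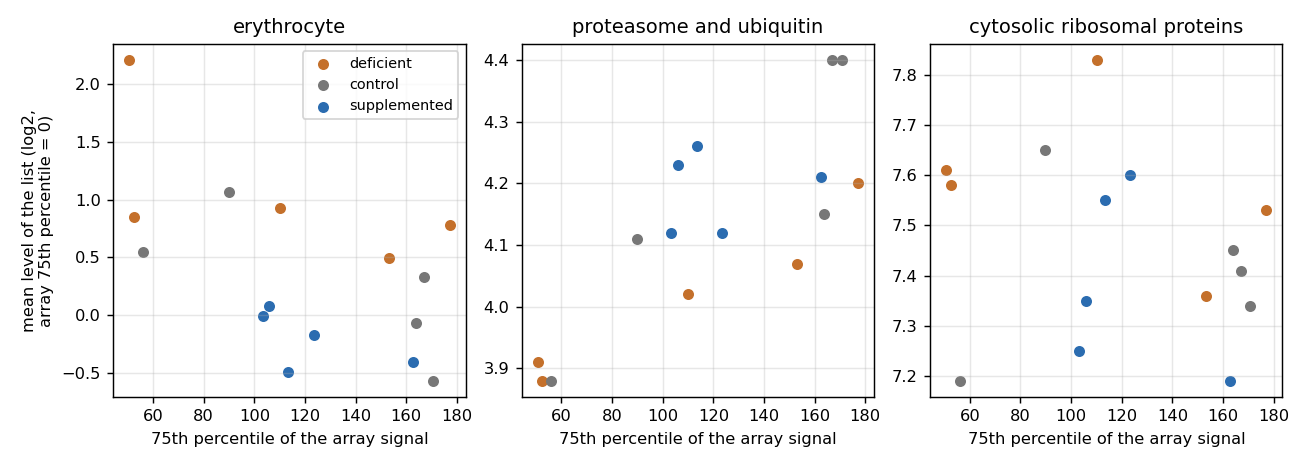
Mean level of 3 gene lists (log2) against the 75th percentile of the raw signal of the array, 1 point per tumour, coloured by early diet. The erythrocyte mean is higher in each deficient than in each supplemented tumour, whereas the proteasome mean is lowest, at 3.88 to 3.91, on the 3 dimmest arrays.

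Receptor and growth factor genes of mammary epithelium showed scattered differences. Erbb2, the HER2 receptor tyrosine kinase, lay apart, with 0.46, 1.23, 1.26, 1.23 and 0.58 in deficient against 1.46, 1.39, 1.54, 1.79 and 1.98 in supplemented tumours (difference 0.68, 0.14 to 1.21, limma adjusted p 0.679). The progesterone receptor gene Pgr, an oestrogen target, differed by 0.76 with overlap, 0.00 ± 0.54 against 0.76 ± 0.42. Areg, the epithelial growth factor that relays oestrogen signals in the gland, had 5.83 ± 0.45 against 6.38 ± 0.22, with an unadjusted p of 0.0574. The dim gene Ereg, of a related ligand, differed by 1.14 with overlap, and the dim receptor gene Erbb4 by -1.09. Of 14 genes of this list 8 were higher and 6 lower (median 0.12, and 0.01 without deficient tumour 3). Of 22 growth factor and IGF axis genes 14 were higher, and Igfbp5, which binds insulin-like growth factors, was lower by -1.13 (3.46 ± 0.63 against 2.33 ± 0.68). In the WNT list 12 of 20 genes were higher (median 0.10, and -0.03 without supplemented tumour 3), among them Wnt5a (0.89). The dim gene Axin2, a feedback target of the pathway, differed by 1.11 without overlap. Axin2 was well above background in 2 deficient and 5 supplemented tumours, and its difference was 0.37 in the deposited values. Of 24 TGF-beta and BMP genes 13 were higher (median 0.04, and -0.04 without deficient tumour 4), with Twsg1 and the receptor Bmpr1a (0.40) lying apart. All limma adjusted p-values of the named genes lay between 0.615 and 0.999.

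Stress, growth arrest and haem handling genes were higher in shares close to that of all bright genes, 1423 of 2327. The lists also held middle and dim genes, of which 1434 of 2487 and 1698 of 3568 were higher. Bright were 10 of 26 p53 and apoptosis, 14 of 27 antioxidant and 10 of 20 haem and iron handling genes. Their list medians after normexp with the offset were -0.09, -0.20 and -0.02, beside -0.38, -0.12 and 0.17 for all bright, middle and dim genes. The p53 target Cdkn1a, an inhibitor of cyclin-dependent kinases, had 3.07 ± 0.39 against 3.67 ± 0.31 (difference 0.60), and 17 of 26 p53 and apoptosis genes were higher (median 0.10). Of 27 antioxidant and glutathione genes 18 were higher (median 0.13), with the peroxiredoxin Prdx6 lying apart (0.44, 2.62 ± 0.18 against 3.06 ± 0.11). Of 20 genes of haem and iron handling 13 were higher (median 0.16), none lying apart, among them the haem breakdown enzyme Blvra (0.91). Blvra was dim, and well above background in 2 deficient and 5 supplemented tumours. Its difference was 0.41 without the 3 dimmest arrays and 0.36 in the deposited values. Of 32 cell cycle genes 25 were lower (median -0.23), none with an unadjusted p under 0.05, and the list mean spread from -0.94 to 0.57 in deficient and from -0.76 to 0.76 in supplemented tumours. That median ran from -0.48 without supplemented tumour 4 to -0.09 without deficient tumour 2.

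Markers of immune and stromal cells varied widely among tumours of 1 diet. All 8 measured T cell genes were lower, none by more than 0.44, while the list mean ran from -0.60 to 1.27 in deficient and from -1.23 to 1.13 in supplemented tumours, and the median was 0.18 without supplemented tumour 4. Of 13 macrophage genes 5 were higher and 8 lower, with C1qb at 5.29 ± 0.42 and 5.29 ± 0.54. The basophil and mast cell protease genes Mcpt9 (1.63) and Mcpt8 (1.32) were higher with overlap, whereas the mast cell tryptase Tpsab1 differed by -0.04 and the chymase Cma1 by -0.26. The median of the 11 mast cell and eosinophil genes, 0.50, was -0.18 without deficient tumour 3 and 1.27 without supplemented tumour 4. All 7 adipocyte genes were lower (median -0.55), and Cebpa, a factor of fat cell differentiation, was well above background in 4 deficient and 0 supplemented tumours. Its groups overlapped, and on this scale its deficient mean was at least 1.59-fold higher, a bound that other processing did not keep. Its difference of -1.34 was -0.87 without deficient tumour 4, the highest at 0.34, and -0.64 without the 3 dimmest arrays. It was -0.33 in the deposited values and -0.01 with normexp. The adipocyte median was -0.14 without deficient tumour 1, -0.21 in the deposited values and -0.01 with normexp. The neutrophil gene S100a9 differed by -1.48 with overlap (0.16 ± 1.27 against -1.32 ± 1.27). Of 18 milk protein and secretion genes 9 were higher and 9 lower (median -0.11), with Csn3 at 7.16 ± 0.95 and 6.53 ± 0.79.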

How the data were processed

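Per the file headers, the authors scanned single-colour arrays with Agilent Feature Extraction 11.5.1.1 (the submitters' processing notes give version 15.5) and deposited 1 file of spot intensities per tumour, already background-subtracted in the processed signal. They also deposited a table of log2 values of 30002 rows, whose normalization is not given in the sources used here; it served as an alternative only. Signals were scaled to the 75th percentile over non-control spots, spots of a probe averaged, and outlier spots left out (40 missing values among tested probes). Symbols came from RefSeq GRCr8 by unversioned accession, for 17502 of 41012 probes (42.7%). Differences were fitted with limma 3.58.1 in R 4.3.3 over all 15 tumours and 3 diets (12 residual degrees of freedom), with Benjamini-Hochberg adjustment over 21015 probes and a threshold of 0.05. One label field speaks of gland tissue at weaning age; the tissue and age fields were followed. The procedure was tested on simulated data.

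Named genes are the 8 bright, 5 middle and 3 dim genes of lowest p in each direction, the gene of lowest p in a list where it was under 0.05, and fixed names of zinc handling, keratins and receptors, 59 in all; other list members named were picked out after their values were seen. Lists held 778 measured genes. The genes and lists were chosen with earlier results of these data known, and list counts are descriptions without a test. Alternatives were other background corrections and normalizations, filters, blocks, weights and leaving out each array; normexp used the median spot signal, the mean signal not being used here. Promoter windows are from RefSeq.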

Additional observations from a re-analysis of the deposited data

Results flagged for a closer look

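Among 138 groups of 5 tumours examined (59 named genes and 10 list means in each diet), 9 held a tumour whose gap to its nearest neighbour was over 0.71 of the group's range, and about 1 in 20 such groups is due by chance. Deficient tumour 1 accounted for 5 of them: Hba-a3 at 9.05 (the next tumour at 5.85), Hbb-b1 at 8.20 (6.24), Hbb at 3.12 (1.38), the erythrocyte list mean at 2.21 (0.93) and the adipocyte list mean at 1.01 (-0.62). Deficient tumour 3 was low for the matrix proteoglycan Fmod, at 2.83 with the next at 4.51, and high for the T cell list mean, at 1.27 with the next at -0.28. Supplemented tumour 5 was high for the adipocyte list mean, at 0.02 with the next at -1.29, and supplemented tumour 1 for Abca2, at 4.46 with the next at 4.07.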

How the results depend on the processing

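The number of probes with a limma adjusted p under 0.05 was 0 under the alternatives run, except 1 with array weights (an unnamed probe, -1.95, adjusted p 0.0194) and 1 without supplemented replicate 1 (Capns2), so leaving out 1 array gave 0 to 1. Unadjusted p-values under 0.05 numbered 930 (of 11719 probes well above background on all 10 arrays) to 1893 (of 41012 without a filter). Genes lying apart numbered 98 above and 27 below as reported, and 29 and 43 with normexp, 56 above with the deposited values, 57 below with no filter, 10 below with probes well above background on all 10 arrays, 61 above with normexp and quantile normalization, and 228 and 116 without the 3 dimmest arrays. When 1 of the 10 compared tumours was left out they numbered 118 to 198 above and 36 to 77 below, where fewer tumours make separation easier. Leaving out a control array does not change these counts. Several alternatives cannot move a difference between the 2 diets: the fit of only the 10 arrays, no filter, the replicate number as a block and leaving out a control array. Most named genes were also picked for low p in these same data, so a count of kept directions overstates their stability. Of 1755 values of named genes under alternatives 1735 kept their direction, though not their size: with normexp Ckb gave 0.01, Prdx6 0.05, Pfkm 0.06, Slc39a6 and Psmc4 0.10, Sec14l1 0.13 and Rab10 0.20. The other 20 turned: with normexp Cdkn1a gave -0.03, Krt8 -0.37, Mt1 -0.56, Taf5 0.14 and Timp4 0.01; Mt1 gave -0.01 with quantile normalization, -0.10 with the deposited values and -0.05 with normexp and quantile normalization; Mt2A gave 0.22 with array weights, 0.09 with the scan day and 0.13 with the slide as a block. With 1 array left out Krt8 ran from -0.03 to 0.25, Mt1 from -0.59 to 0.42 and Mt2A from -0.64 to 0.25. The cause was not tested. The 3 alternatives on dim arrays, array brightness and normexp with quantile normalization were chosen after seeing the data.

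The diets share replicate numbers 1 to 5, but no label says that these pair the tumours. Deviations of same-numbered tumours correlated at -0.28 to 0.213, and 2 of 5 deficient tumours correlated best with their own number. So few correlations, of mixed sign, cannot settle whether the numbers pair the tumours. With the replicate number as a block 0 probes were called, the lowest limma adjusted p was 0.633 and 1454 had an unadjusted p under 0.05. Precision was lowest for dim probes, whose 95% intervals reached 0.59 to either side in the median, against 0.41 for bright ones.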
